A study of Mus musculus with 12 samples.

Results

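The inhibitor Spink5 and the epidermal kallikreins were measured in mouse prostate organoids, which are epithelial cultures grown in 3 dimensions inside a gel. The set held 10 named genes, Spink5 and the kallikreins Klk5, Klk6, Klk7, Klk8, Klk10, Klk11, Klk12, Klk13 and Klk14, and its members were matched by gene name. Of these, 8 had a row among the 24674 genes of the table, namely Spink5 and 7 kallikreins, and Klk5 and Klk14 had no row in the table analysed here. The set was chosen by values measured in these samples, so the levels and differences of its members are given as a description. Counts of members past the limits of a fit are printed beside the share or number of all genes, and nothing is read from them.

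The cultures were wild type, of the C57BL/6 strain (C57BL/6J in the study's methods) and derived from basal cells, and every culture shared these features. They received vehicle, UK5099 alone, butyrate alone, or UK5099 and butyrate together (the combination), with 3 replicates in each of the 4 groups. UK5099 is a blocker of the carrier that moves pyruvate into mitochondria. Butyrate is a short-chain fatty acid that blocks histone deacetylases. The comparison asked how blocking pyruvate import and blocking histone deacetylation, apart and together, changed transcript levels. The labels do not say whether replicates came from separate mice. The p-values thus set differences against the spread among the 3 replicates within each group, which may be technical.

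Spink5 encodes LEKTI, a secreted protein with a row of Kazal-type domains that are cut apart into smaller inhibitors of serine proteases. Kallikreins are secreted serine proteases made as inactive precursors, and in the outer epidermis they cut the junction proteins that hold dying squamous cells together. LEKTI fragments restrain them, and people who lack LEKTI have Netherton syndrome, in which the skin barrier sheds too early.

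The kallikrein genes lie in 1 cluster on chromosome 7. The upstream sequences of the 4 kallikreins that stood highest under the combination are shown. Each is the 250 bases before an annotated start site on the plus strand, taken from RefSeq on GRCm38.p6. They cover chr7:43797327-43797576 for Klk8, chr7:43780804-43781053 for Klk10, chr7:43774367-43774616 for Klk11 and chr7:43712317-43712566 for Klk13. Capitals mark matches to CACCC, to its reverse complement GGGTG or to TTAAAA. Klk11 has a second annotated start site, whose window (chr7:43776079-43776328) is not shown and held no match.

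Klk8: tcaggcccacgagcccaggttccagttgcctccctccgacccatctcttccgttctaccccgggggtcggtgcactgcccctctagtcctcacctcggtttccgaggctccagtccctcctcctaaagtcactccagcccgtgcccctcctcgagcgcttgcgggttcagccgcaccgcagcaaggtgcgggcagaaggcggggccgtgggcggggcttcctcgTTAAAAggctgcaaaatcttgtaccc
Klk10: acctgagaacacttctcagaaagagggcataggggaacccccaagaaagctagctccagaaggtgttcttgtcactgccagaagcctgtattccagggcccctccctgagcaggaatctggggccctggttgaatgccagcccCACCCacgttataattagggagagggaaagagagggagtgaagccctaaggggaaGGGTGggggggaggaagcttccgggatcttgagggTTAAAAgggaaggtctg
Klk11: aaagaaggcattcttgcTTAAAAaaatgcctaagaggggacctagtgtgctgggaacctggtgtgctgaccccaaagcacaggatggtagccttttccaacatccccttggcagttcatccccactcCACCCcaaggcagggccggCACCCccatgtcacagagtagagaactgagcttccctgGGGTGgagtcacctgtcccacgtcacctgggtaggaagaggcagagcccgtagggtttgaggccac
Klk13: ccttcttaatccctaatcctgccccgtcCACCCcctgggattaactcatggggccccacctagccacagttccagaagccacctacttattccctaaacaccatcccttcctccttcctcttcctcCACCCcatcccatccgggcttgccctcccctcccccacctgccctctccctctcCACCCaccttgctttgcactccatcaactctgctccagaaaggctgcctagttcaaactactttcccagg

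All 7 kallikreins matched a RefSeq entry, with 9 start sites between them. CACCC, a short element searched on both strands, was present in 6 of the 9 member windows and in 52.0% of all 32851 windows of this length. TTAAAA was added as a motif after the sequences had been read, and it was present in 4 of the 9 member windows and in 17.7% of all windows. It began 26 bases before the Klk8 start and 17 bases before the Klk10 start. The Klk8 window held no CACCC. No TTAAAA lay within the Klk13 window. The TATA box TATAAA (12.4% of all windows), the AP-1 element (TGA, any base, TCA, 6.75%) and the grainyhead-like element AACNGGTT (1.79%) had no match in the 9 member windows. None of the searched motifs was thus common to the 4 sequences.

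Depth was between 33251843 and 43498967 fragments per sample, recovered from the steps between low values. TPM is a level per length scaled to the same total in each sample, but here the length was the whole genomic span with introns. UK5099 replicate 1 and combination replicate 1 stood apart from their group-mates, with a chi-square per degree of freedom of 5.80 to 6.11 against 1.89 to 2.53 for the other pairs. Over genes that averaged 1 TPM or more, the median log2 difference from vehicle was -0.12 under UK5099, -0.30 under butyrate and -0.41 under the combination, and it lay within 0.034 of 0 after median of ratios scaling. Differences below are on the TPM scale as deposited unless stated. Basal markers (Krt5, Krt14, Trp63 and Itga6, 4 of 4 with a row) summed to 3545 to 3585 TPM in vehicle, 9805 to 10303 under UK5099, 4519 to 4709 under butyrate and 8114 to 8364 under the combination. The sum of 6 markers of immune, endothelial, stromal and neuroendocrine cells was 0.855 to 1.81 TPM over all samples, with none at 0 in every sample.

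Spink5, the inhibitor, was low in vehicle and higher in every treated sample. Its level was 1.58, 1.85 and 1.59 TPM in vehicle, 15.02, 11.6 and 13.0 TPM under UK5099, 20.7, 19.6 and 19.2 TPM under butyrate, and 9.92, 8.27 and 8.44 TPM under the combination. The groups did not overlap in TPM, and the combination stood between vehicle and either drug alone. The means were 1.67 ± 0.154, 13.2 ± 1.70, 19.8 ± 0.742 and 8.88 ± 0.907 TPM (SD, n = 3). Mean TPM was thus 7.90-fold higher than vehicle under UK5099, 11.9-fold higher under butyrate and 5.30-fold higher under the combination.

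The gene sits on chromosome 18 from 44096302 to 44155568 on the plus strand, as the table gives it with no build named, and its span of 59267 bp holds 4785 bp of exon. Its TPM is therefore low for the number of fragments behind it. Pooled over each group there were 2110 fragments in vehicle, 18255 under UK5099, 31421 under butyrate and 16586 under the combination. In CPM, counted fragments per 1000000 in a sample, the ratio of pooled fragments to vehicle was 8.37 (95% interval 7.996 to 8.75), 14.8 (14.2 to 15.5) and 6.98 (6.67 to 7.31), and these exact intervals on CPM cover counting error only.

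The 2 drugs together gave less Spink5 than either drug alone in TPM. On the log2(TPM + 1) scale the difference from vehicle was 2.41 ± 0.091 (SE) under UK5099, 2.96 ± 0.091 under butyrate and 1.88 ± 0.091 under the combination. The interaction, the departure of the combination from the sum of both drugs, was -3.49 ± 0.13. The fitted difference between the combination and butyrate alone was -1.08, and that between the combination and UK5099 alone was -0.52. The comparison of the combination with UK5099 alone depended on scaling: in CPM the combination samples (149, 125 and 126) overlapped the UK5099 samples (185, 142 and 155). Butyrate alone stood above all other samples on both scales, at 296, 282 and 274 CPM.

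Klk8, which encodes neuropsin, a trypsin-like protease of brain and epidermis, was the most abundant kallikrein and moved otherwise. It measured 1.14, 1.54 and 1.57 TPM in vehicle, 2.41, 3.08 and 2.00 TPM under UK5099, 1.96, 1.94 and 2.14 TPM under butyrate, and 4.69, 5.48 and 5.11 TPM under the combination. The combination samples were the highest and the vehicle samples the lowest, while the single drugs overlapped each other. The log2(TPM + 1) difference from vehicle was 0.53 ± 0.11 under UK5099, 0.32 ± 0.11 under butyrate and 1.34 ± 0.11 under the combination. None of its 12 values was a whole number of fragments, as occurs where reads are divided among features.

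The kallikreins Klk10, Klk11 and Klk13 were near absent without the combination. Klk13, a trypsin-like protease of stratified epithelia, had 0, 2 and 1 fragments in vehicle, 1, 8 and 5 under UK5099, 1, 3 and 2 under butyrate, and 125, 75 and 80 under the combination. The lowest combination sample held many times the fragments of the highest other sample. In CPM, the pooled ratio of the combination was 82.9 to vehicle (28.1 to 404), 41.6 to butyrate (18.9 to 114) and 18.4 to UK5099 (10.8 to 34.0).

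Klk11, known as hippostasin and present in skin and prostate, was listed at 0 in all 3 vehicle samples. It had 1, 0 and 5 fragments under UK5099, 4, 1 and 4 under butyrate, and 82, 38 and 47 under the combination. The combination samples lay above all 9 others, and the pooled ratio was 25.6 to UK5099 (11.5 to 70.6) and 16.5 to butyrate (8.50 to 36.8). Klk10, an epithelial kallikrein, had 1, 6 and 3 fragments in vehicle, 13, 9 and 6 under UK5099, 9, 8 and 9 under butyrate, and 43, 27 and 51 under the combination. Its combination samples were again the highest, with a pooled ratio of 10.7 to vehicle (5.65 to 23.0), while UK5099 overlapped vehicle. Butyrate lay just above vehicle in fragments and CPM but overlapped it in TPM.

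The other 3 kallikreins had at most 13 fragments in a sample. Klk7, the chymotrypsin-like enzyme of the stratum corneum, was listed at 0 in vehicle and had 3, 0 and 2 fragments under UK5099, 2, 0 and 1 under butyrate, and 2, 13 and 13 under the combination. Combination replicate 1, one of the libraries that stood apart, lay among the single drugs for Klk7. The pooled CPM ratio of the combination was 5.14 to UK5099 (1.96 to 17.1) and 8.32 to butyrate (2.57 to 42.8). Klk6, a trypsin-like protease also called neurosin, had 3, 2 and 1 fragments in vehicle, 4, 4 and 7 under UK5099, 2, 0 and 1 under butyrate, and 4, 6 and 12 under the combination. In CPM the UK5099 and the combination samples of Klk6 lay above all vehicle and butyrate samples and overlapped each other. This rested on 4 fragments in combination replicate 1 against 3 in vehicle replicate 1. In TPM that combination sample lay below that vehicle sample (0.0482 against 0.0601). The pooled CPM ratio of the combination was 3.26 to vehicle (1.28 to 9.81) and 1.35 to UK5099 (0.668 to 2.79). Klk12 was listed at 0 in vehicle and UK5099 samples, and had 1, 0 and 1 fragments under butyrate and 1, 3 and 5 under the combination. For Klk12 the ratio of the combination to butyrate was 4.01 (0.830 to 38.1), on 9 and 2 pooled fragments. No listed gene had fewer than 10 fragments summed over the 12 samples. Outside the combination Klk7 (0, 5 and 3 pooled fragments) and Klk12 (0, 0 and 2) stayed under that sum. Both thus have a row only through their combination samples, and nothing is read from their ratios.

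**Figure D1:**
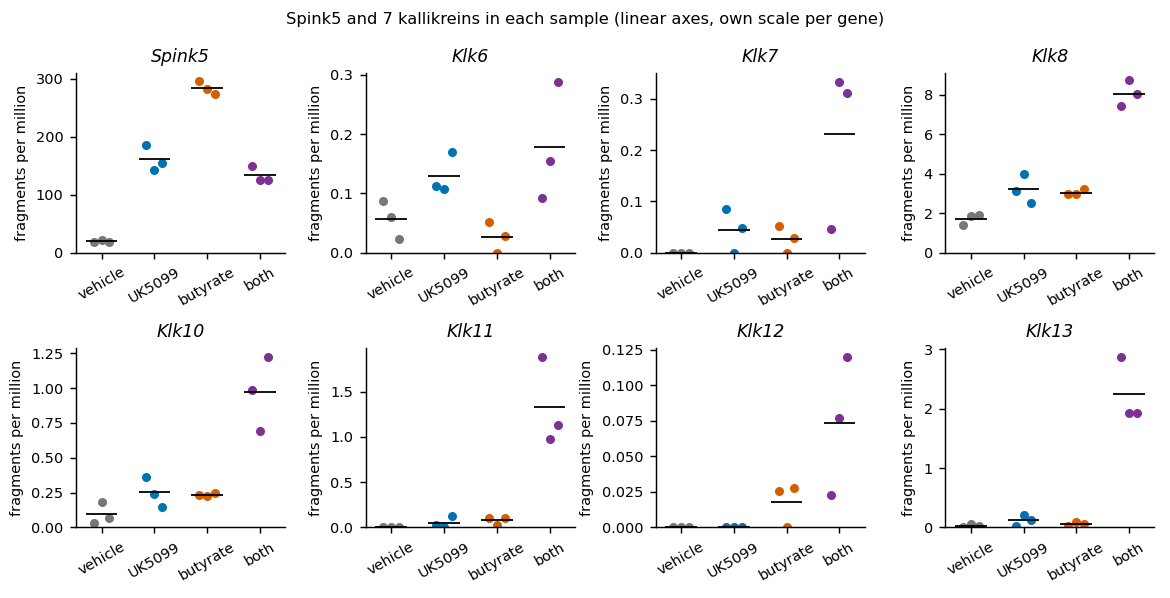
Fragments as CPM (y axis, linear, own scale per gene) of Spink5 and 7 kallikreins in vehicle, UK5099, butyrate and combination ("both") samples, with 1 point per sample and a line at the group mean (n = 3). Spink5 was highest under butyrate alone, whereas Klk8, Klk10, Klk11 and Klk13 were highest under the combination.

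In CPM, 4 of the 7 kallikreins (Klk8, Klk10, Klk11 and Klk13) had all 3 combination samples above the other 9 samples, as had 7.23% of all 24674 genes. Under UK5099 alone (4.23% of all genes) and under butyrate alone (8.02%), 0 of 7 had all 3 samples above the others. The set was chosen on these values, so nothing is read from its count. In the fit, members were counted past both limits of the study, an adjusted p under 0.01 and a log2 difference over 1, and 1.79% of all genes passed them upwards under the combination. Members past them under the combination were Spink5, Klk8 and Klk11 (1.07 ± 0.11). Without combination replicate 1 the Klk11 difference was 0.92, and 2 members were counted in place of 3 (425 of all genes rose, against 442). For UK5099 (0.928% of genes upwards) and for butyrate (1.13%) the only member was Spink5. Spink5 was also the only member past the limits in the interaction, downwards, where 0.499% of genes passed downwards and 0.515% upwards.

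The median difference over the 8 members was 0.067 under UK5099, 0.065 under butyrate and 0.70 under the combination, beside -0.034, -0.074 and -0.11 over all genes. These 3 comparisons share the vehicle samples, and Klk7 and Klk12 are members with a row only through the combination. Only Spink5 and Klk8 averaged 1 TPM or more over the 12 samples, and a pseudocount of 1 compresses the differences of the rest. Voom on the recovered fragments, added after seeing the data, has no such floor. It gave log2 differences under the combination of 6.13 ± 0.96 for Klk13, 6.65 ± 1.1 for Klk11, 3.53 ± 0.61 for Klk10, 2.30 ± 0.19 for Klk8 and 2.88 ± 0.11 for Spink5, and these 5 were the members past both limits (8.62% of genes passed upwards). For UK5099 (3.02%) and butyrate (6.84%) Spink5 was again the only member, at 3.13 ± 0.11 and 3.89 ± 0.11. The fitted values of Klk11 and Klk13 rest on vehicle groups at or near 0 and are no bound on the fold.

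**Figure D2:**
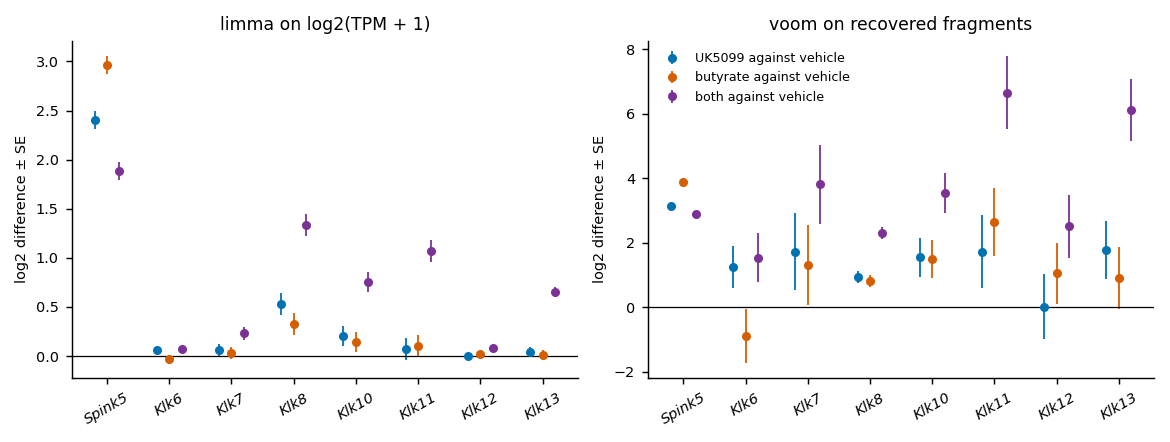
Log2 difference from vehicle (y axis, point ± SE) of each member for UK5099, butyrate and the combination ("both"), by limma on log2(TPM + 1) at left and by voom on fragments at right. In both panels Spink5 is highest under butyrate, and Klk8, Klk10, Klk11 and Klk13 are highest under the combination.

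The inhibitor and the proteases were then set against each other within each sample. The summed TPM of the 7 kallikreins was 1.24 to 1.82 in vehicle, 2.49 to 3.49 under UK5099, 2.20 to 2.55 under butyrate and 7.83 to 8.20 under the combination. Spink5 divided by that sum was 1.08 ± 0.176 in vehicle, 4.52 ± 1.03 under UK5099, 8.38 ± 0.729 under butyrate and 1.11 ± 0.112 under the combination (SD, n = 3). The single drugs thus stood above vehicle, and the combination samples (1.23, 1.06 and 1.03) lay within the range of vehicle (1.28, 1.02 and 0.947).

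As a share of inhibitor plus kallikreins, Spink5 took 51.7% ± 3.93 of TPM in vehicle, 81.4% ± 3.89 under UK5099, 89.3% ± 0.869 under butyrate and 52.4% ± 2.45 under the combination (SD, n = 3). In fragments per exonic length the shares were higher, at 76.6%, 93.1%, 96.3% and 77.3%, but kept the same order of groups. Klk8 made up most of the kallikrein sum, with 84.8% to 93.7% of its TPM in vehicle and 58.3% to 70.0% under the combination, where Klk10, Klk11 and Klk13 took the larger rest. Left without Klk8, the share was 91.7% in vehicle and 75.3% under the combination, so the likeness of these groups rests on Klk8. These are transcript shares and no measure of protein or protease activity.

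**Figure D3:**
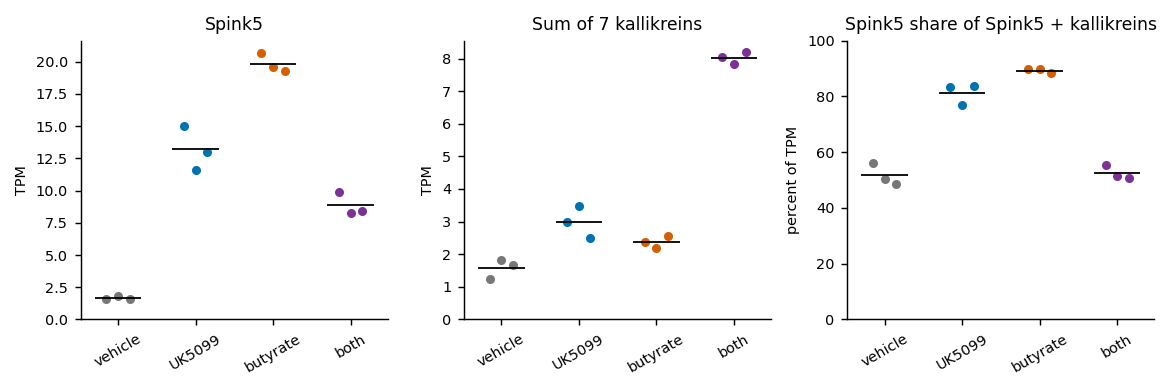
TPM of Spink5, summed TPM of 7 kallikreins, and Spink5 as a percent of both (y axes) in each group, with 1 point per sample and a line at the mean (n = 3). The share is 51.7% in vehicle and 52.4% under the combination ("both"), against 81.4% and 89.3% with the single drugs.

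Along the cluster the levels under the combination were uneven. In the table's own coordinates (build not named in it) the order on the plus strand of chromosome 7 was Klk13 (43361991 to 43376958), Klk12, Klk11, Klk10, Klk9, Klk8, Klk7 and Klk6 (43473923 to 43481454). Klk12 lies between Klk13 and Klk11 and had 9 fragments in all under the combination, against 280 and 167 for its neighbours. That is a lower level. Whether Klk12 also responded less was not tested, since it has a row only through the combination and nothing is read from its ratio. Klk9, which is no member, had 3 fragments in vehicle, 4 under UK5099, 1 under butyrate and 44 under the combination, pooled and rounded. Like Klk7 and Klk12, Klk9 has a row only through the combination, being under 10 fragments without it. Its log2(TPM + 1) difference under the combination was 0.33 ± 0.04, under the limit of 1, and is given as a description only. Klk1b27, of the glandular kallikreins, had 5, 1, 11 and 1 pooled fragments.

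An antisense transcript, 2310002F09Rik, a long non-coding RNA that was picked after its values were seen, runs on the minus strand from 43344633 to 43447382. It overlaps all of Klk13, Klk12, Klk11, Klk10 and Klk9 and the first 382 bp of Klk8. Its pooled fragments were 54 in vehicle, 152 under UK5099, 104 under butyrate and 215 under the combination, a ratio of 3.54 for the combination to vehicle (2.61 to 4.86). That ratio was smaller than the 82.9 of Klk13 and the 10.7 of Klk10. The ratio was 4.64 for Klk8 (3.97 to 5.45), with an interval that overlapped that of the antisense transcript. For Klk9 the ratio was 13.0 (4.17 to 65.6), and nothing is read from it. Whether strand was used in counting is not stated, so the strand that a read in an overlap came from cannot be told. All non-zero values of Klk10, Klk11, Klk12 and Klk13 were whole fragments. Whole values were 5 of 9 for Klk9, 0 of 12 for Klk8 and 1 of 12 for the antisense transcript. Whether reads were shared was not tested.

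**Figure D4:**
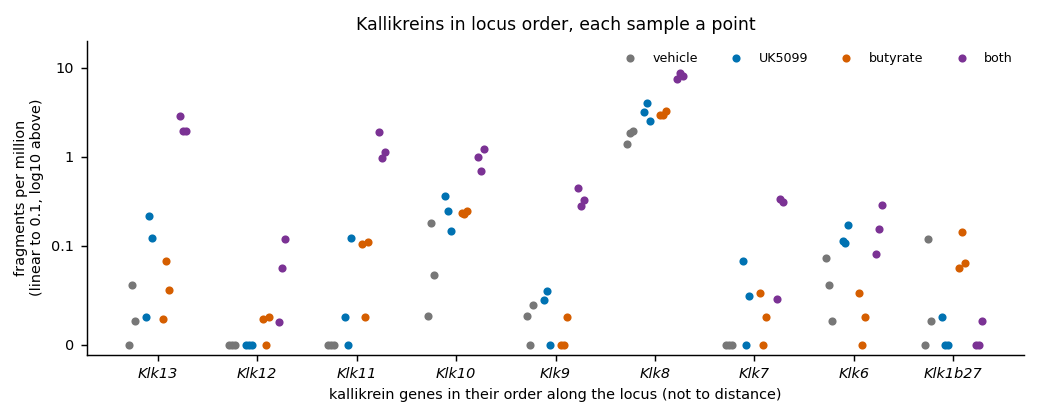
Fragments as CPM (y axis, linear up to 0.1 and log10 above) of kallikrein genes in their order along the cluster, not to distance, with 1 point per sample in 4 groups. Combination samples ("both") are highest at Klk13, Klk11, Klk10, Klk9 and Klk8, while Klk12, Klk7 and Klk6 overlap other groups.

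Related genes were taken from 5 lists of inhibitors, proteases and substrates, in which 32 of 59 genes had a row. Of the 32, 5 rose and 0 fell under UK5099, 2 rose and 2 fell under butyrate, and 7 rose and 2 fell under the combination (limma, adjusted p under 0.01 and a log2 difference over 1). Over all genes, 0.928% rose and 0.912% fell under UK5099, 1.13% and 2.42% under butyrate, and 1.79% and 4.63% under the combination, so the 2 of 32 that fell under the combination were near the share of all genes. The split depended on scaling: under the combination 442 genes rose and 1143 fell in TPM, against 722 and 410 after median of ratios scaling. Under butyrate these were 278 and 596 against 431 and 308, and under UK5099 229 and 225 against 263 and 148. Voom called 9 higher and 0 lower of the 32 under UK5099 (3.02% and 2.78% of all genes), 7 and 0 under butyrate (6.84% and 3.69%), and 13 and 2 under the combination (8.62% and 5.43%). In its interaction 1.21% of all genes were higher and 1.48% lower. Of other Spink inhibitors, 3 of 11 had a row, and 0 passed in limma and 1, Spink14, in voom in each comparison. Spink14, which lies next to Spink5, was listed at 0 in vehicle and had 16 pooled fragments under UK5099, 86 under butyrate and 51 under the combination. Like Spink5, it was highest under butyrate alone. Its log2(TPM + 1) difference under butyrate was 0.77 ± 0.07 (limma, adjusted p = 8.0e-06), under the limit, and voom gave 5.84.

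Among other inhibitors of epidermal proteases, 1 of 7 rose in each comparison and it was Slpi, the secretory leukocyte protease inhibitor. Slpi measured 0.685, 0.761 and 0.681 TPM in vehicle, 3.34, 3.41 and 3.52 TPM under UK5099, 3.75, 3.39 and 3.65 TPM under butyrate, and 17.8, 17.3 and 17.1 TPM under the combination. Unlike Spink5, it was highest under the combination, where its difference was 3.43 ± 0.03 (limma, adjusted p = 5.5e-12). Its interaction was 0.63 ± 0.05 (adjusted p = 1.6e-05), under the limit of 1 and opposite in sign to that of Spink5. Spint1, Spint2, Serpinb5, Serpinb8, Cst6 and A2ml1 did not pass in the 3 comparisons.

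Among other epidermal proteases, 11 of 13 had a row. Tmprss11e, a membrane serine protease of squamous epithelium, rose under UK5099 (1.63 ± 0.10, limma, adjusted p = 1.3e-06) and under the combination (1.32 ± 0.10, adjusted p = 1.5e-06). Asprv1, the aspartic protease that trims filaggrin, rose under the combination (1.47 ± 0.20, adjusted p = 0.00014). St14 and Prss8 encode matriptase and prostasin, which activate one another at the cell surface, and both fell under the combination. St14 went from 42.5 to 45.2 TPM in vehicle to 13.6 to 14.9 TPM (-1.56 ± 0.04, limma, adjusted p = 5.1e-10), and Prss8 from 18.5 to 21.4 TPM to 4.98 to 7.03 TPM (-1.62 ± 0.10, adjusted p = 2.5e-07). Butyrate alone lowered St14 (-1.05 ± 0.04, adjusted p = 1.1e-08) and Ctsc, which encodes cathepsin C (-1.20 ± 0.03, adjusted p = 1.9e-09), but neither passed the limit of 1 under the other 3 scalings or voom, with -0.74 and -0.89 after median of ratios scaling.

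Of kallikrein substrates and the downstream receptor and cytokine, 9 of 10 had a row, with 3 higher under UK5099, 1 under butyrate and 4 under the combination. Tslp, the epithelial cytokine that follows kallikrein signalling in skin, measured 29.8, 32.7 and 33.6 TPM in vehicle, 486, 521 and 551 TPM under UK5099, 66.6, 68.2 and 67.4 TPM under butyrate, and 384, 411 and 412 TPM under the combination. It was the only pathway gene whose interaction passed (-1.42 ± 0.08, limma, adjusted p = 2.7e-06). Flg, which encodes filaggrin, had 2, 2 and 3 fragments in vehicle and 1982, 1308 and 1303 under the combination (3.00 ± 0.13, limma, adjusted p = 2.2e-08). Dsg1b, a desmoglein, had at most 1 fragment in a vehicle sample and rose under the combination (2.53 ± 0.05, adjusted p = 2.7e-10), but it can share reads with its near copies Dsg1a and Dsg1c. Cdsn, the corneodesmosin that Klk7 cuts, rose under the combination (1.02 ± 0.08, limma, adjusted p = 2.8e-06), but it was at 0.98 and under the limit of 1 without vehicle replicate 2 or without combination replicate 2. F2rl1, the receptor PAR2 that kallikreins can switch on, measured 18.6 to 20.5 TPM under the combination and 35.5 to 36.2 TPM in vehicle (-0.84 ± 0.04, adjusted p = 2.1e-08), under the limit of 1.

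**Figure D5:**
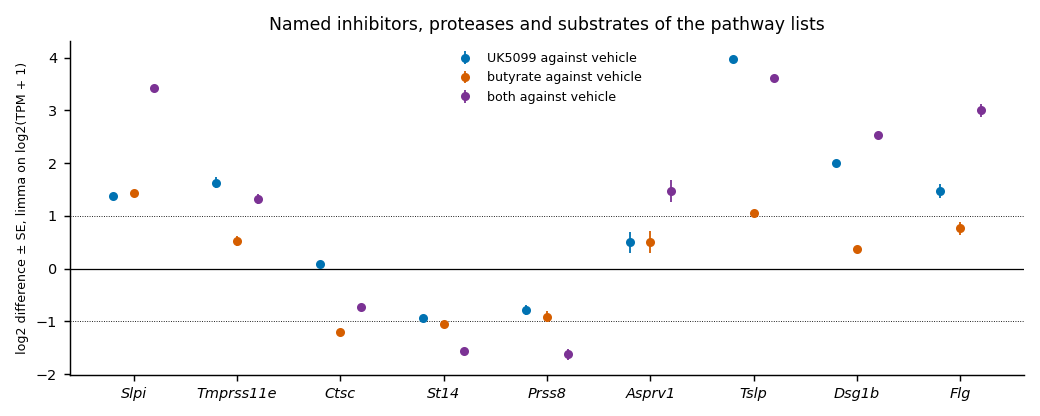
Log2(TPM + 1) difference from vehicle (y axis, point ± SE, limma) of 9 named pathway genes for UK5099, butyrate and the combination ("both"), with dotted lines at the limits of 1 and -1. Slpi and Flg are highest under the combination at 3.43 and 3.00, Tslp is highest under UK5099 at 3.98, and St14 and Prss8 are lowest under the combination.

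Squamous cell markers also changed with the treatments, but not all alike. Krt10 had a mean of 118 TPM under UK5099 and 35.8 under the combination, and Lor stayed at means of 7.60 to 9.63 TPM. All 12 markers had a row, and their summed level was 834 to 896 TPM in vehicle, 2610 to 3017 under UK5099, 1870 to 1922 under butyrate and 3929 to 5235 under the combination, with none at 0 in every sample. Of the 12, 9 rose under UK5099 (0.928% of all genes), 9 under butyrate (1.13%) and 10 under the combination (1.79%). In the interaction 1 rose (0.515% of all genes) and 6 fell (0.499%), among them Krt1, Krt10 and Ivl. The order of the summed markers, vehicle, butyrate, UK5099 and combination, was not that of Spink5 in TPM. Luminal markers (5 of 6 with a row) summed to 4141 to 4311 TPM in vehicle, 2334 to 2492 under UK5099, 2246 to 2286 under butyrate and 1390 to 1578 under the combination. The part of squamous, luminal and basal markers in the member levels was not tested, and in bulk RNA more cells of a type and more RNA per cell cannot be told apart.

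The genes most like Spink5 over the 12 samples were named by Pearson's r of log2(TPM + 1) among 13343 genes. They were the non-coding Gm45774 (r = 0.985), Adam28 (0.985), Chdh (0.983) and the metallothioneins Mt1 and Mt2 (both 0.979). Mt1, for example, had a mean of 1353 TPM in vehicle, 1953 under UK5099, 2360 under butyrate and 1838 under the combination. The genes most like the mean of the kallikreins were the non-coding Gm15845 (0.964), the keratin Krt90 (0.952), Lgalsl (0.941), S100a7a (0.939) and Rbp2 (0.937). Krt90 had a mean of 0.246 TPM in vehicle, 0.393 under UK5099, 0.559 under butyrate and 4.27 under the combination. The kallikrein mean includes Klk7 and Klk12, which have a row only through the combination. Its likeness to genes that are high under the combination is thus in part by construction. The 2 lists of 5 shared no gene, and these correlations are a description over samples that fall into 4 treatment groups.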

How the data were processed

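RNA was sequenced as read pairs from 12 samples in 4 groups of 3, grouped by their titles. The authors deposited 1 table of TPM per gene. The study's methods name fastp, STAR, GRCm38 and RSEM, whereas the submitters' processing notes name STAR 2.7.9a, Partek and GRCm39, and the labels and methods also name different library kits. The table names no build, and 2.18% of 23913 matched genes had the GRCm38 start and end. Its length was the genomic span in 100% of genes, so TPM was divided by introns too.

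Fragments were recovered from TPM times span, and 75.3% to 76.6% of protein-coding values under 1000 fragments were whole within 0.02. Limma 3.58.1 (R 4.3.3) was fitted to log2(TPM + 1) of all 24674 genes and 12 samples, with terms for UK5099, butyrate and their interaction and Benjamini-Hochberg adjustment. A gene was called at an adjusted p under 0.01 and a log2 coefficient over 1 in size, the study's limits. The pseudocount of 1 was chosen here. Named pathway genes were the 3 called genes with the largest coefficients per list and comparison and a group mean of at least 1 TPM. Cdsn, F2rl1, Klk9, Klk1b27, Spink14 and 2310002F09Rik were added after their values were seen. Likeness named 5 genes each. The members, lists and rules were chosen with earlier results of these data known. Alternatives were pseudocount 0.1, a filter at 1 TPM, 3 other scalings, a replicate block, fits of 6 samples and each sample left out. Voom on fragments, and leaving out both libraries that stood apart, were added after seeing the data. Scripts were tested on simulated data. Other tools were Python 3.11.15 with pandas 2.3.3, numpy 2.4.6 and scipy 1.17.1, and figures used matplotlib 3.10.9.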

Additional observations from a re-analysis of the deposited data

Results flagged for a closer look

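The level of 2 genes departed from the sum of the 2 drugs. The effect of UK5099 on Spink5 differed between cultures with and without butyrate, with an interaction of -3.49 on the log2(TPM + 1) scale. Spink5 belongs to a set chosen on these values, so this is a description and no test. The effect of UK5099 on Tslp also differed by butyrate, with an interaction of -1.42 ± 0.08 (limma, adjusted p = 2.7e-06). Tslp rose under UK5099 in 6 of 6 samples that received it, with and without butyrate.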

How the results depend on the processing

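Beyond the values given here, the counts of members and pathway genes stayed within 1.5 times those reported. Members past both limits under the combination numbered 6 with a pseudocount of 0.1 and 5 with voom, against 3, and ranged from 2 to 3 when samples were left out. Of all 24674 genes, 1026 rose with a pseudocount of 0.1 and 2127 with voom, against 442, and 425 to 452 when samples were left out. In the interaction the members numbered 3 with a pseudocount of 0.1, 2 with median of ratios and 3 in CPM, against 1. With samples left out there were 1 to 2, where Klk11 passed without combination replicate 2. Of all genes, 268 were higher and 251 lower in the interaction with a pseudocount of 0.1, against 127 and 123. These were 122 and 120 with median of ratios, 209 and 197 in CPM, and 122 and 118 without combination replicate 2. For UK5099 and for butyrate alone the members stayed at 1 to 1. Of all genes, 456 and 727 rose with a pseudocount of 0.1, against 229 and 278. Pathway genes called under UK5099 numbered 9 with a pseudocount of 0.1 and 9 with voom, against 5 (5 to 5 with samples left out). Under butyrate they numbered 7 with a pseudocount of 0.1, 2 with median of ratios, 2 with quantile normalisation and 7 with voom, against 4 (4 to 4). Under the combination they numbered 14 with a pseudocount of 0.1 and 15 with voom, against 9 (8 to 9, with 8 without vehicle replicate 2 or combination replicate 2, where Cdsn was lost at 0.98). In the interaction they numbered 5 with a pseudocount of 0.1, 2 with quantile normalisation and 4 with voom, against 1 (1 to 1). A smaller pseudocount widens the differences of low genes by construction, and the cause of the other shifts was not tested. The Dsg1b interaction was 0.15 as reported, -1.32 with a pseudocount of 0.1 and -5.39 with voom, so its sign was not settled.

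The Spink5 share was 91.0%, 97.6%, 98.8% and 91.0% in fragments not per length for vehicle, UK5099, butyrate and the combination. By exonic length it was 76.6%, 93.1%, 96.3% and 77.3%, and without Klk8 it was 91.7%, 96.4%, 98.2% and 75.3%. With samples left out it ranged from 49.5% to 53.3% in vehicle, 80.1% to 83.6% under UK5099, 89.0% to 89.8% under butyrate and 51.0% to 53.3% under the combination.

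Replicate numbers did not pair samples: deviations of same-numbered samples correlated between -0.107 and 0.029 over 18 pairs, with 0 over 0.1. With the number as a replicate block the members past both limits stayed at 1, 1, 3 and 1 and the pathway genes called at 5, 4, 9 and 1. Of all genes, 227, 273 and 443 then rose under UK5099, butyrate and the combination, and 120 fell in the interaction. Leaving out both libraries that stood apart gave 2 members under the combination, where 426 of all genes rose. Depth limits Klk6, Klk7 and Klk12, which had at most 13 fragments in a sample.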
